A study of Mus musculus with 4 samples.

Results

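β cells of mouse islets exposed for 6 h to IL-1β + IFN-γ were compared with β cells exposed to IFN-γ alone, to find which effects of IFN-γ were boosted, left or dampened when IL-1β was present. Single islet cells from male C57BL/6 mice (C57BL6/J in the study's methods) were sequenced on a droplet platform that tags every captured transcript with a cell barcode and a unique molecular identifier (UMI). Islets were pooled and then separated into 4 samples: untreated, recombinant human IL-1β, mouse IFN-γ, and both cytokines, each given ex vivo before dissociation. Each sample gave 1 library, so differences between conditions lack a replicate check, and none was tested. All 4 groups shared strain, sex and islet pool, and the labels name no transgene or deletion.

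Cells were kept when they had between 200 and 4000 detected genes and mitochondrial UMIs of 12% or less. A kept cell counted as a β cell when Ins1 and Ins2, the mouse insulin genes, held at least 5% of its UMIs and the glucagon, somatostatin and pancreatic polypeptide genes (Gcg, Sst and Ppy) each held under 1%. This gave 1256 β cells with IFN-γ and 1255 with both cytokines, together 2511 of the 3932 cells kept in these libraries, 7471 kept in all libraries and 12571 barcodes. The untreated and IL-1β libraries, used here as the reference for each single cytokine, held 1170 and 1123 β cells. Near the limit, the lowest insulin share inside the class was 5.07% of UMIs with IFN-γ and 5.15% with both, and the highest share outside was 4.94% and 4.95%. Insulin levels chose these cells and are not a result. Pdx1 and Mafa, transcription factors that define β cells, were present in both libraries, although at lower levels with both cytokines, as described below. The δ-cell marker Hhex, which the rule did not use, stood at 1 UMI in each library.

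The summed β-cell depth was 13945412 UMIs with IFN-γ and 15458997 with both cytokines, against 19868129 untreated and 9573837 with IL-1β. Median UMIs per β cell were 11101 and 12209, with medians of 3022.5 and 2884 detected genes. The median insulin share was 27.7% with IFN-γ and 31.9% with both, and mitochondrial genes held 6.61% and 5.27% of the summed UMIs. Gene levels below are CPM, a gene's summed UMIs per 1000000 β-cell UMIs of the library, and ratios are levels with both cytokines over those with IFN-γ unless stated otherwise. Intervals are exact 95% Poisson intervals for levels and exact conditional binomial intervals for ratios, and cover counting error only. In ratios, lower counts were set to a floor of 3 UMIs, which is 0.215 CPM with IFN-γ and 0.194 CPM with both. The libraries compared shared 2 cell barcodes among all their barcodes, and no other pair shared more than 4.

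IFN-γ binds a receptor whose JAK kinases activate transcription factors that bind GAS elements and induce IRF1 and, through it, genes with interferon-response elements. IL-1β signals through MyD88 and IRAK kinases to NF-κB, which binds κB elements. In islets these cytokines are studied as mediators of autoimmune diabetes, and rodent β cells answer them with inducible nitric oxide synthase, chemokines and antigen presentation. A pair of interferon-inducible GTPase families, the guanylate-binding proteins (GBPs) and the immunity-related GTPases (IRGs), act on intracellular pathogens and their vacuoles, and in these β cells their summed levels lay on opposite sides of the IFN-γ level when IL-1β was added.

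To show what lies upstream of genes on each side, the 250 bases before the transcription start are printed for Cxcl10 and Gbp5, which were far higher with both cytokines, for Igtp and Irgm1, which were lower, and for Hamp, which had the highest ratio among genes with more than 3 UMIs with IFN-γ. Sequences are from RefSeq promoter windows of GRCm38.p6 and run 5′ to 3′ on the gene's strand. Capitals mark matches, on either strand, to κB letters (GGGA and CC separated by any 4 bases), IRF letters (a pair of GAAA separated by any 2 bases) or GAS letters (TTC and GAA separated by any 3 bases). Cxcl10 and Gbp5 lay at chr5:92348890-92349139 (minus strand) and chr3:142496684-142496933 (plus strand). Igtp, Irgm1 and Hamp lay at chr11:58199306-58199555 (plus strand), chr11:48871421-48871670 (minus strand) and chr7:30944030-30944279 (minus strand). 
Cxcl10: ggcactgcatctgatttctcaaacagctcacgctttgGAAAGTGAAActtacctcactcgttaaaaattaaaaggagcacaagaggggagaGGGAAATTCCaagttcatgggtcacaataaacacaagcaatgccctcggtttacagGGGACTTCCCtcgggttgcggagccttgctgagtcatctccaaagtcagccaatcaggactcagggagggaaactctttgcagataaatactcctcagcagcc
Gbp5: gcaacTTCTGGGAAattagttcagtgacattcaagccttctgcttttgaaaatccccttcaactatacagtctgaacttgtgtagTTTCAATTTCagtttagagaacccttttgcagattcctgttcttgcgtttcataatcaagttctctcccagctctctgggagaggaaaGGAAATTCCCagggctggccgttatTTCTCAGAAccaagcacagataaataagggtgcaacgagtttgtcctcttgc
Igtp: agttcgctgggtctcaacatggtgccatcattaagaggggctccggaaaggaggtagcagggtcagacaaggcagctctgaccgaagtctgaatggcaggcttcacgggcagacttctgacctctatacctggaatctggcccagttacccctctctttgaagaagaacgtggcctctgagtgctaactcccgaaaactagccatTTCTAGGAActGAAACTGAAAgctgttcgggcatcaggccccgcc
Irgm1: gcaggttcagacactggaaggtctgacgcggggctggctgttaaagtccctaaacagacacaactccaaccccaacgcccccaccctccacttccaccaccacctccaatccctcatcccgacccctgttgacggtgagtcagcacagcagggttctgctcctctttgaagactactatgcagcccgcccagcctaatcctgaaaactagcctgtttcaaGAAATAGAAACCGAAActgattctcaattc
Hamp: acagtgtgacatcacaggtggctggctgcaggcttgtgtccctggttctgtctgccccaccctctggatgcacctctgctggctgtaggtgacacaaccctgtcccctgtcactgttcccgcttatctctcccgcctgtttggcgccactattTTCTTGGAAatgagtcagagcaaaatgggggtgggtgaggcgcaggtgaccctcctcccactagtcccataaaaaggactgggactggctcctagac

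The Cxcl10 window held 1 IRF match, starting 213 bases before the start, and 2 κB matches at 159 and 103 bases. Gbp5 held a κB match at 77 bases, an IRF match at 165 bases and GAS matches at 245 and 52 bases. Igtp held an IRF match at 34 bases and a GAS match at 45 bases, and Irgm1 held 2 overlapping IRF matches at 30 and 24 bases. Hamp held a GAS match at 97 bases. No κB letters were present in the windows printed for Igtp, Irgm1 and Hamp, which says nothing of sites elsewhere or of variants of these letters. Over whole windows of 300 bases, 22.9% of the 27025 genes in the promoter table held a κB match, 3.99% an IRF match and 9.55% a GAS match.

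In all, 7986 genes had at least 10 CPM in either library. Of these, 807 (10.1%) were at least 1.5-fold higher with both cytokines than with IFN-γ and are called raised, 1999 (25.0%) were at least 1.5-fold lower and are called lowered, and 5180 (64.9%) lay between. The median gene was at 0.851 of its IFN-γ level, a log2 ratio of -0.23. Hormone genes held 34.6% of β-cell UMIs with IFN-γ and 38.2% with both, which leaves the remaining genes a smaller part of the total. With the hormone genes left out of the totals, the median log2 ratio was -0.15. Measured from the median gene, 1223 genes (15.3%) were raised and 1212 (15.2%) were lowered. When the libraries were instead scaled by the median of gene ratios, 53.3% of called genes were raised, against 28.8% here.

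**Figure D1:**
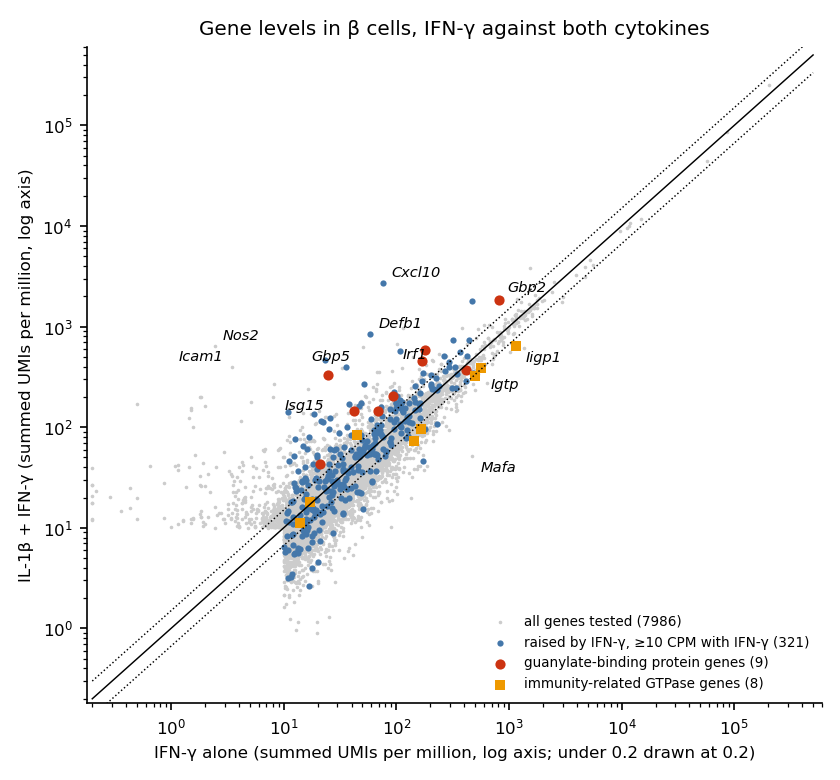
Level of each gene in β cells with IFN-γ (x axis) and with both cytokines (y axis), in summed CPM on log axes. Grey points are the 7986 genes tested and blue points the 321 genes raised at least 2-fold by IFN-γ with at least 10 CPM there, the solid line marks equal levels and the dotted lines 1.5-fold. Red circles, the 9 GBP genes tested, lie above the upper dotted line except Gbp7, and 4 of the 8 orange squares, the IRG genes tested, lie below the lower one.

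IFN-γ alone raised few genes and lowered fewer. Against untreated β cells, 321 of 7741 genes (4.15%) were at least 2-fold higher with IFN-γ and 10 (0.129%) were at least 2-fold lower, while the median gene was 1.25-fold higher. Hormone genes held 47.6% of β-cell UMIs untreated and 34.6% with IFN-γ. Fewer genes counted as raised by IFN-γ on the alternative scales given in the last section. The 321 genes were those with at least 10 CPM in the IFN-γ library. When IL-1β was added, 89 of them (27.7%) were boosted, 172 (53.6%) were left within 1.5-fold and 60 (18.7%) were dampened. Over all genes with at least 10 CPM with IFN-γ, 7.05% were raised and 26.2% were lowered, with a median log2 ratio of -0.26. Gene lists are counted below over members with at least 10 CPM with IFN-γ, and against these shares, because a member that passes only through the combined library had to differ. Measured from the median gene, 122 of the 321 were boosted, 158 left and 41 dampened, where 15.3% and 15.2% of the 7986 genes tested were raised and lowered. A further 74 genes were raised by IFN-γ to under 10 CPM and passed only through the combined library. With these the counts were 158 boosted, 177 left and 60 dampened of 395, but a gene that enters this way is nearly bound to count as boosted. The IFN-γ library enters both ratios, so a level there that is high by counting error favours dampening, and the split is a description.

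Cxcl10 and Ccl2, both chemokine genes, had the highest ratios among the genes raised by IFN-γ to at least 20 CPM, a limit set after the values were seen. Defb1 and Gbp5, at 14.5 and 13.2, came next. Defb1 was 2.38-fold above untreated with IFN-γ, where the median gene was 1.25-fold, and under 2-fold when measured from that median. Cxcl10, which encodes a CXCR3 ligand that attracts activated T cells, stood at 2.16 CPM untreated, 65.3 with IL-1β alone, 75.7 with IFN-γ alone and 2686 with both, and was 35.5-fold (95% interval 33.4 to 37.7) higher with both than with IFN-γ. Its rise over untreated was 19.6 times the sum of the rises with each cytokine. Cxcl10 was thus far below Gbp2, described below, with IFN-γ and above it with both. Cxcl9, another CXCR3 ligand, stood at 0 CPM untreated, 0 with IL-1β alone, 1.86 with IFN-γ alone and 199.8 with both, a ratio of 107 (73 to 164). Ccl2, a monocyte chemoattractant, stood at 0.101 CPM untreated, 133 with IL-1β alone, 23.2 with IFN-γ alone and 469.7 with both, and its rise was 3.01 times the sum of the single rises. Cxcl1 and Cxcl2, neutrophil chemoattractants, were present with IL-1β alone and near 0 with IFN-γ alone. Cxcl1 stood at 0 CPM untreated, 262 with IL-1β alone, 1.51 with IFN-γ alone and 149 with both. Cxcl2 stood at 0 CPM untreated, 39.9 with IL-1β alone, 0.0717 with IFN-γ alone and 26.8 with both, where the IFN-γ value is 1 UMI. Of 13 chemokine genes listed, Cxcl10, Ccl2 and Cxcl16 had at least 10 CPM with IFN-γ and all 3 were raised, where 7.05% of all genes were. Cxcl1, Cxcl2, Cxcl9 and Ccl28 passed only through the combined library. Cxcl16 and Ccl28 had ratios of 7 (6.04 to 8.14) and 6.6 (5.32 to 8.25).

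The GBP genes were boosted as a family, with 1 exception. Summed over 10 genes, GBP transcripts stood at 14.6 CPM untreated, 577 with IL-1β alone, 1836 with IFN-γ alone and 4082 with both, a ratio of 2.22 (2.19 to 2.26). Of the 9 genes tested, 8 were raised, against 7.05% of all genes, and none was lowered, with a median log2 ratio of 1.15. Gbp2, the most abundant, stood at 1.51 CPM untreated, 287 with IL-1β alone, 819 with IFN-γ alone and 1821 with both. Gbp4 stood at 0.151 CPM untreated, 54 with IL-1β alone, 179 with IFN-γ alone and 579 with both. Gbp5, which is known to promote inflammasome assembly, stood at 0.201 CPM untreated, 56 with IL-1β alone, 24.8 with IFN-γ alone and 327 with both, the highest ratio of the family at 13.2 (11.8 to 14.7). Both single cytokines therefore gave GBP transcripts, IFN-γ more than IL-1β for all of those except Gbp5, and the combination exceeded either. The remaining raised members, Gbp3, Gbp6, Gbp8, Gbp9 and Gbp10, had ratios from 2.06 for Gbp10 to 3.42 for Gbp9, and Gbp2b stayed at 2.01 CPM or less. The rise in the combined library was 1.65 times the sum of the single rises for Gbp2, 1.97 for Gbp3, 2.49 for Gbp4 and 4.06 for Gbp5. Gbp7 was the exception. It stood at 8.66 CPM untreated, 37.3 with IL-1β alone, 418 with IFN-γ alone and 371 with both, a ratio of 0.887 (0.855 to 0.92) that is close to that of the median gene, and its rise with both was 0.827 of the summed single rises. Gbp2, Gbp3, Gbp5 and Gbp7 lie in a cluster on chromosome 3 and Gbp4, Gbp6, Gbp8, Gbp9 and Gbp10 on chromosome 5. The annotated spans of Gbp4, Gbp8 and Gbp9 overlap (GRCm38, chromosome 5, 105115767 to 105139586 for Gbp4), so how reads were divided among these near-identical genes is uncertain.

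**Figure D2:**
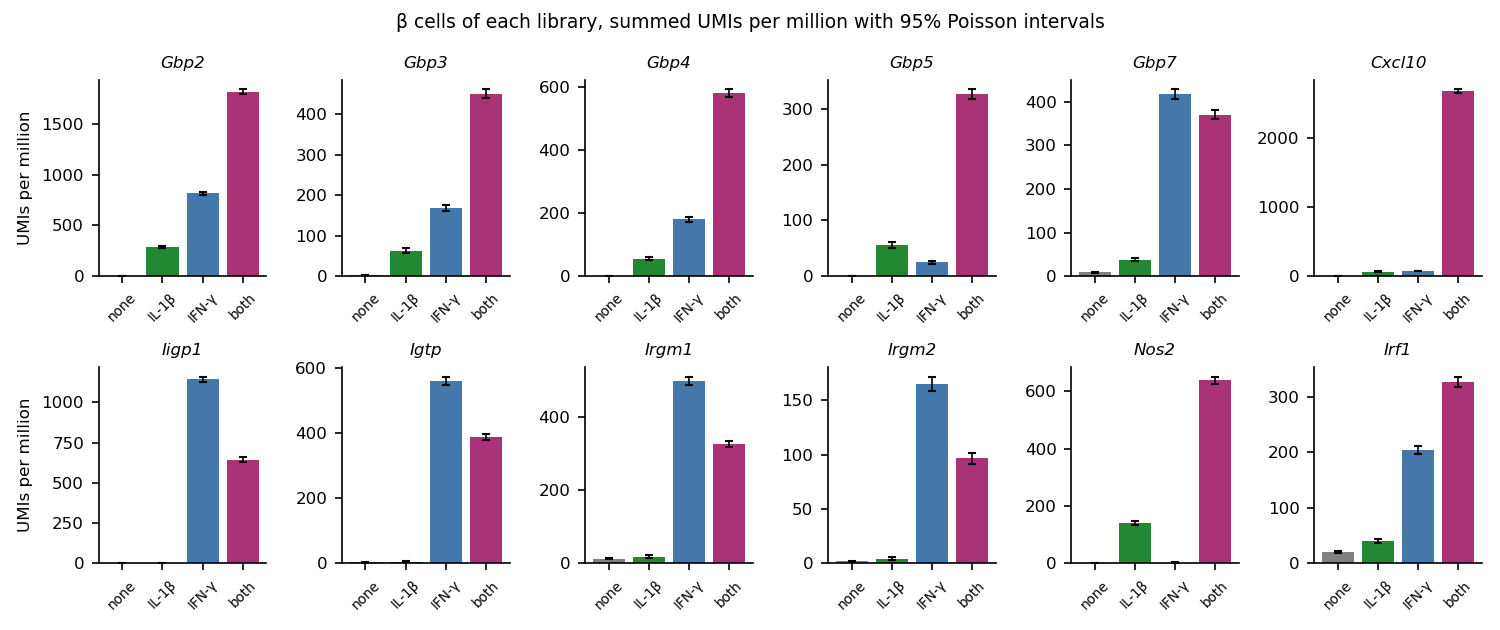
Levels of 12 genes in the β cells of each library (none, IL-1β, IFN-γ, both), as CPM on linear axes from 0, with bars for the level and whiskers for the exact 95% Poisson interval. Gbp2, Gbp3, Gbp4, Gbp5, Cxcl10, Nos2 and Irf1 are highest with both cytokines, whereas Gbp7, Iigp1, Igtp, Irgm1 and Irgm2 are highest with IFN-γ alone.

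The IRG genes, which IFN-γ induced from low levels, were lower in sum when IL-1β was present, though not in every member. Their sum over 10 listed genes stood at 19.3 CPM untreated, 34.4 with IL-1β alone, 2599 with IFN-γ alone and 1654 with both, a ratio of 0.636 (0.626 to 0.647). Iigp1, which encodes Irga6, a GTPase that coats parasite vacuoles, stood at 0.101 CPM untreated, 1.25 with IL-1β alone, 1143 with IFN-γ alone and 646 with both, a ratio of 0.565 (0.551 to 0.579). F830016B08Rik, another member, went from 143 to 72.7 CPM and had 0 UMIs in both libraries without IFN-γ. Irgm1 and Irgm2, regulators of the other IRG proteins, had ratios of 0.654 (0.631 to 0.678) and 0.586 (0.549 to 0.626). These 4 of 8 tested were lowered and 1 was raised, with a median log2 ratio of -0.57, where 26.2% of all genes were lowered and 7.05% raised. Igtp, which encodes Irgm3, went from 560.3 to 387 CPM, a ratio of 0.691 (0.668 to 0.715), and Tgtp1 from 13.9 to 11.3 CPM. Tgtp2 and Gm5431 stayed under 10 CPM in both libraries, at 9.82 to 7.12 CPM and 4.95 to 6.47 CPM. Ifi47 was the raised member, at 0.151 CPM untreated, 1.25 with IL-1β alone, 44.3 with IFN-γ alone and 83.3 with both, and Gm4951 lay at 1.05 (0.879 to 1.25). Measured from the median gene, Iigp1 and F830016B08Rik of the listed genes remained past 1.5-fold. Each listed IRG gene but Ifi47, Gm4951 and Gm5431 was below its IFN-γ level. Gm4841, which lies between Gm4951 and F830016B08Rik on the same chromosome, was not in the list, so the sum and counts leave it out. It went from 65.8 to 36.9 CPM, a ratio of 0.562 (0.505 to 0.624), and remained past 1.5-fold from the median gene. The annotated span of Igtp (chromosome 11, 58199556 to 58207591) lies almost wholly within that of Irgm2 (58199618 to 58222782). How reads were divided between them was not examined.

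Per cell, the shifts of both families covered most of the distribution. GBP transcripts held a median of 16.1 UMIs per 10000 UMIs of a cell with IFN-γ, with quartiles of 7.89 and 25.9, and 38.1 with both, with quartiles of 25.4 and 53.9. IRG transcripts held a median of 23.8 with IFN-γ, with quartiles of 14.7 and 34.0, and 14.5 with both, with quartiles of 8.31 and 23.1. The upper quartile with IFN-γ lay at about the lower quartile with both for the GBP sum. For Cxcl10 the median cell went from 0 to 14.8 UMIs per 10000, and the tenth of cells with the most held 96.7% of Cxcl10 with IFN-γ and 38.0% with both. Cells of 1 library are not replicates, and these values describe the spread within each library.

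**Figure D3:**
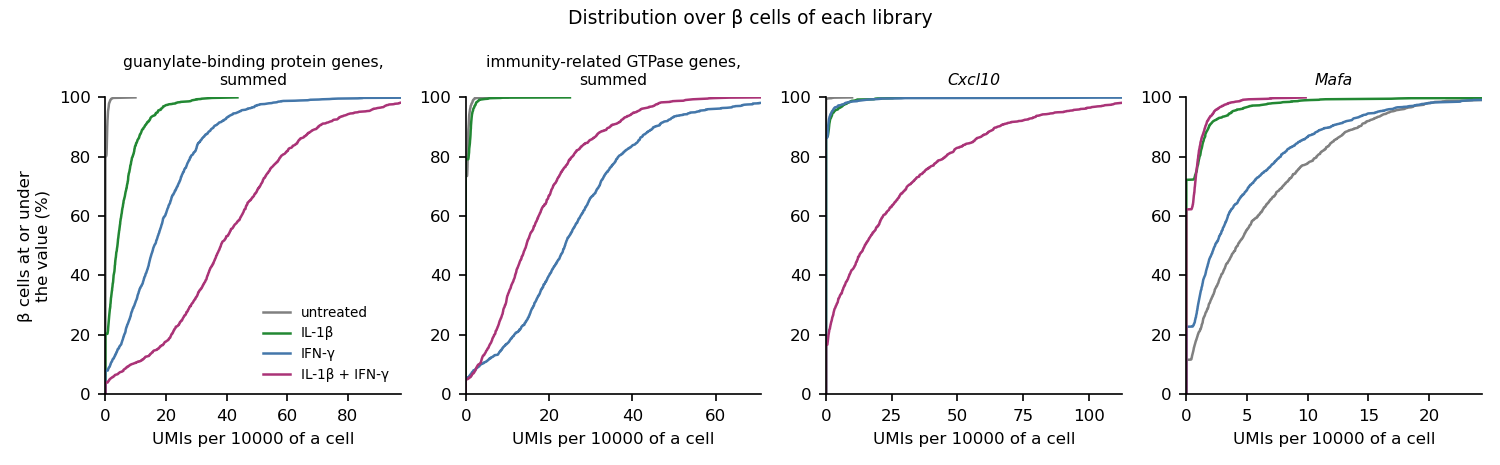
Percentage of β cells at or under each value (y axis) for summed GBP genes, summed IRG genes, Cxcl10 and Mafa, in UMIs per 10000 UMIs of a cell (x axis), with 1 line per library. The line for both cytokines lies right of the IFN-γ line for GBP genes and Cxcl10, and left of it for IRG genes over most cells and for Mafa.

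The signaling genes upstream of these families did not move as 1 block. Irf1, an activator of GBP and antigen presentation genes, stood at 19.7 CPM untreated, 40.4 with IL-1β alone, 205 with IFN-γ alone and 328 with both, a ratio of 1.6 (1.53 to 1.68), and its rise was 1.5 times the sum of the single rises. Stat2 remained at its IFN-γ level, from 107 to 108 CPM. Socs1, a feedback inhibitor of JAK kinases, stood at 0.705 CPM untreated, 8.67 with IL-1β alone, 36.9 with IFN-γ alone and 99.5 with both, a ratio of 2.7 (2.44 to 2.99). Of the receptor chains, Ifngr2 went from 5.09 to 51 CPM and Ifngr1 from 11.2 to 16.2 CPM, and Ifngr2 was as high with IL-1β alone, at 58.2 CPM. Jak2, the kinase bound to Ifngr2, had a ratio of 2.07 (1.84 to 2.33), Stat3 of 2.13 (2.04 to 2.22), and Ptpn2, a phosphatase that acts on JAKs and STATs, of 3.29 (2.94 to 3.69). In total, 6 of 12 genes of the IFN-γ receptor and JAK-STAT list were raised, against 7.05% of all genes, and none was lowered, with a median log2 ratio of 0.58. Among 6 interferon regulatory factor genes, Irf8 was raised beside Irf1, or 2 of 6 against 7.05% of all genes, while Irf2, Irf3, Irf7 and Irf9 had ratios from 0.918 to 1.19.

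Antigen presentation through MHC class I was boosted in part. B2m, the light chain of class I molecules, stood at 203 CPM untreated, 322 with IL-1β alone, 445 with IFN-γ alone and 735 with both, a ratio of 1.65 (1.6 to 1.7). The heavy chain gene H2-D1 went from 423 to 672 CPM and H2-K1 from 924 to 1197 CPM, of which only the former passed 1.5-fold. The nonclassical genes H2-Q6 and H2-Q7 had the highest ratios, at 9.63 (7.4 to 12.7) and 5.41 (4.65 to 6.32), and in both the IL-1β library exceeded the IFN-γ library. H2 genes are near-identical in parts, so reads may be divided among them with error. H2-T23, which encodes the Qa-1 ligand of NKG2A, changed least among the abundant ones, at 1.21 (1.14 to 1.28). In all, 4 of 9 class I genes were raised, against 7.05% of all genes, and none was lowered, with a median log2 ratio of 0.42. H2-Q6 passed only through the combined library and is not among them. Of the 11 immunoproteasome and peptide-loading genes, 3 were raised and none was lowered, where all genes gave 7.05% and 26.2%. These were Psme2, an activator subunit of the proteasome, at 1.94 (1.87 to 2.02), and the peptide loading genes Tap2, at 1.76 (1.65 to 1.88), and Tapbpl, at 1.71 (1.61 to 1.82). The catalytic subunits Psmb8 and Psmb9, which IFN-γ had brought to 332 and 216 CPM, were left at 1.19 (1.15 to 1.24) and 1.11 (1.06 to 1.16). Of 4 checkpoint and costimulation genes tested, 1 was raised, against 7.05% of all genes. It was Lgals9, which encodes the lectin galectin-9, from 12.3 to 27.7 CPM. Cd274, which encodes the checkpoint ligand PD-L1, was also left. It stood at 4.58 CPM untreated, 13.1 with IL-1β alone, 240.0 with IFN-γ alone and 256 with both, a ratio of 1.07 (1.02 to 1.12).

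Of 7 MHC class II genes, Cd74, the invariant chain, was the only one with 10 CPM in either library, and went from 5.66 to 39.3 CPM. Ciita, the class II transactivator, stood at 0 CPM untreated, 0.209 with IL-1β alone, 7.53 with IFN-γ alone and 3.49 with both. The class II chains H2-Aa and H2-Ab1 went from 3.16 to 4.33 CPM and from 2.94 to 4.14 CPM. The summed level of 10 macrophage markers moved the same way as Cd74, at 89.4 CPM untreated, 51.6 with IL-1β alone, 48.2 with IFN-γ alone and 149 with both. C1qa gave nearly all of it, from 40.4 to 137 CPM, while the defining markers C1qb, C1qc, Csf1r and Tyrobp each stood at under 0.5 CPM in both libraries, and Lyz2 at 0.0717 and 0.388 CPM. Their part in the Cd74 value was not tested.

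Genes of the antiviral list were boosted or left, with none of the list dampened past 1.5-fold. Of 31 with at least 10 CPM with IFN-γ, 12 were raised, against 7.05% of all genes, and 19 lay between, with a median log2 ratio of 0.40. Another 4 passed only through the combined library. Isg15, a ubiquitin-like modifier, stood at 0.755 CPM untreated, 2.92 with IL-1β alone, 26 with IFN-γ alone and 123 with both, a ratio of 4.72 (4.22 to 5.3). Rsad2, which encodes viperin, stood at 3.88 CPM untreated, 12.2 with IL-1β alone, 47 with IFN-γ alone and 162 with both, and its rise was 3.06 times the summed single rises. Neither gene exceeded 13 CPM with IL-1β alone. Ifit2 went from 16.1 to 61 CPM, Apobec3 from 49 to 172 CPM and Parp14 from 172 to 343 CPM. The genes left near their IFN-γ level included Oasl2 at 0.957 (0.903 to 1.01), Ifih1, an RNA sensor, at 1.01 (0.9 to 1.14), Zbp1 at 1.1 (0.985 to 1.22), Ifit3 at 0.882 (0.814 to 0.955) and Rtp4 at 0.913 (0.85 to 0.981). The lowest ratio in the list was that of Eif2ak2, the kinase PKR, at 0.72 (0.643 to 0.807). Outside the list, Ddx60, an antiviral helicase gene, was dampened, from 46.6 to 22.9 CPM.

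**Figure D4:**
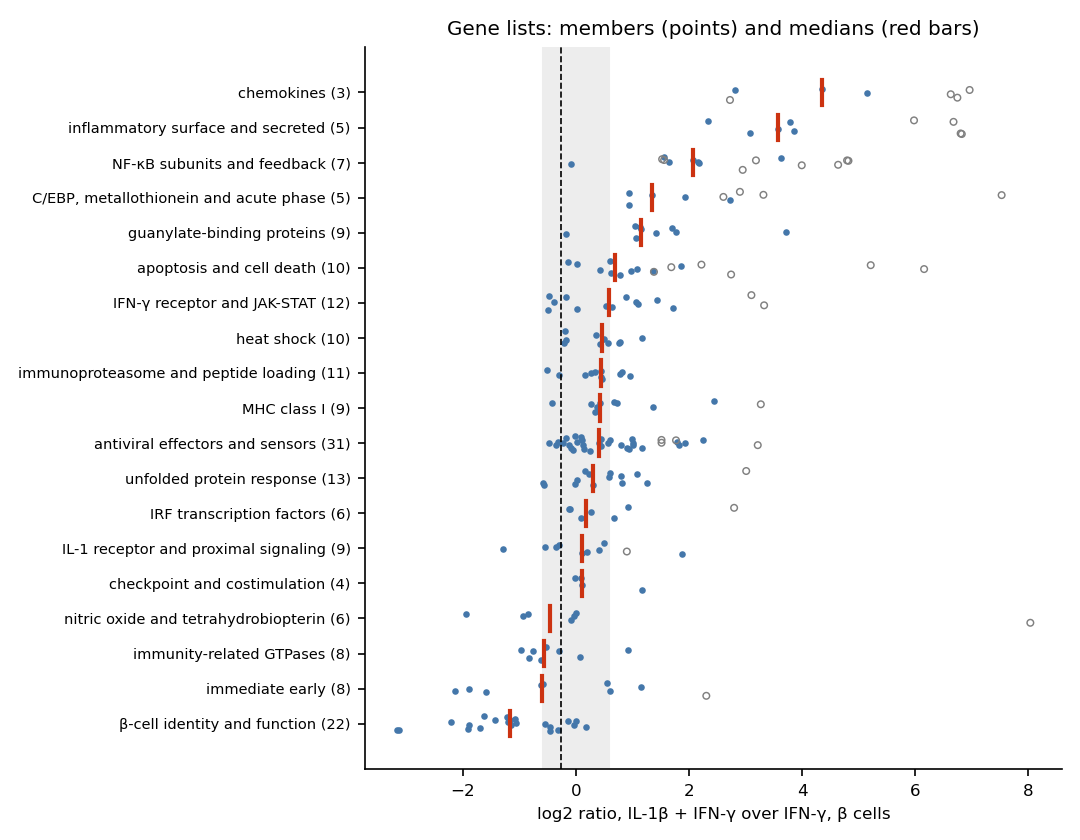
Log2 ratio of both cytokines over IFN-γ (x axis) in β cells for members of 19 gene lists (rows). Blue points are members with at least 10 CPM with IFN-γ (number in brackets) and red bars their medians, open circles are members that passed only through the combined library, the dashed line is the median of all genes with at least 10 CPM with IFN-γ at -0.26 and the grey band covers 1.5-fold in each direction. The chemokine median lies farthest right, that of β-cell identity genes farthest left, and that of IRG genes left of that of GBP genes.

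The genes nearest to a ratio of 1 among those raised by IFN-γ, with at least 20 CPM, were Nub1, Rnf115, Leprotl1, Fbxw17, Stat2 and Plekha2. Their ratios ran from 0.991 for Plekha2 to 1.01 for Stat2. Each also had a higher level with IL-1β than untreated, for example Nub1, which regulates NEDD8, at 27.9 CPM untreated, 50.6 with IL-1β alone, 61 with IFN-γ alone and 61.2 with both. With IFN-γ, Nub1, Rnf115 and Leprotl1 were 2.10 to 2.38-fold above untreated, and under 2-fold when measured from the median gene at 1.25-fold. Wars, a tryptophanyl-tRNA synthetase that IFN-γ is known to induce, was named after its values were seen and was likewise left, at 54.3 CPM untreated, 95.2 with IL-1β alone, 421 with IFN-γ alone and 515 with both.

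Dampened genes were fewer and came from several functions. The 10 most dampened genes with at least 20 CPM were Fosb, Egr1, Atm, Fam184a, C1qtnf12, Bhlhb9, Cenpj, Sgsm2, Gm27168 and Cdk2ap1, with ratios from 0.227 to 0.462. Fosb and Egr1, transcription factors of the immediate early class, led them. With IFN-γ, Egr1, Fam184a, C1qtnf12, Bhlhb9, Sgsm2 and Cdk2ap1 were 2.06 to 2.46-fold above untreated, where the median gene was 1.25-fold. Measured from that median, these genes would not count as raised by IFN-γ. Egr1 stood at 73.8 CPM untreated, 121 with IL-1β alone, 172 with IFN-γ alone and 46.1 with both, a ratio of 0.268 (0.246 to 0.292), and so lay below the untreated level when both cytokines were present. Fosb stood at 4.63 CPM untreated, 10.2 with IL-1β alone, 20.2 with IFN-γ alone and 4.59 with both, a ratio of 0.227 (0.173 to 0.296). Fos, a related gene that IFN-γ raised less than 2-fold, went from 61.7 to 20.4 CPM, while Junb, Ier3 and Jun went from 84.5 to 187 CPM, from 7.31 to 36.1 CPM and from 230.4 to 336 CPM. Of 8 immediate early genes, with Ier3 left out for its level with IFN-γ, 2 were raised and 4 lowered, against 7.05% and 26.2% of all genes. Measured from the median gene, 3 were raised and 3 lowered, against 15.3% and 15.2% of the 7986 genes tested. Atm, a DNA damage kinase, went from 50.1 to 15.5 CPM, a ratio of 0.308 (0.265 to 0.358), and Cenpj, a centriole protein, from 33.8 to 14 CPM. Among genes that IFN-γ raised over 10-fold, to at least 20 CPM, the dampened ones were Ddx60, the listed IRG genes Iigp1, F830016B08Rik, Irgm1 and Irgm2, Gm4841, from 65.8 to 36.9 CPM, and Tnfsf10, which encodes the death ligand TRAIL, from 123 to 78.5 CPM. That last limit of 10-fold was set after the values were seen.

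Few genes were lowered by IFN-γ. Of 13 genes at least 2-fold below untreated in the IFN-γ library, with at least 10 CPM in the untreated, IFN-γ or combined library, 5 were under 10 CPM in both libraries compared, 2 were lowered further, 3 lay between and 3, which passed 10 CPM only in the combined library, were raised. The 2 lowered further were Ppp1r1a, a protein phosphatase inhibitor abundant in β cells, which stood at 430.0 CPM untreated, 81.9 with IL-1β alone, 211 with IFN-γ alone and 91.6 with both, and Rasd1, a Ras-like gene, which went from 10.8 to 3.04 CPM. These 2, and S100a6 and the acinar enzyme Cela2a among the raised, were named for their calls and not by the rule for named genes. Gstp1, a glutathione transferase, stood at 30.5 CPM untreated, 4.6 with IL-1β alone, 9.68 with IFN-γ alone and 10.5 with both, and Tmod1, a tropomodulin, at 24.9 CPM untreated, 6.89 with IL-1β alone, 10.6 with IFN-γ alone and 8.34 with both. Neither passed 1.5-fold. Chil1, a chitinase-like protein gene, was raised and stood at 1.96 CPM untreated, 31.9 with IL-1β alone, 0.86 with IFN-γ alone and 12.6 with both. S100a6, a calcium-binding protein gene, went from 4.66 to 11.1 CPM and Cela2a from 1.94 to 10.4 CPM. Lgals3 and Apoe, which macrophages express strongly, stood at 14.7 and 22.9 CPM untreated and at no more than 3.08 CPM in the libraries compared. Gm4791, Ccdc85b and Rflna were likewise under 10 CPM in both. Macrophage markers were also higher in the untreated β cells, with Lyz2 at 3.98 and Tyrobp at 2.26 CPM, against 0.0717 and 0.215 with IFN-γ, and their part in these values was not tested.

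The 12 genes with the highest ratios, among those of at least 20 CPM in either library, stood at under 4 CPM with IFN-γ alone, and all but Cxcl9 were present with IL-1β alone. Hamp, which encodes the iron hormone hepcidin, stood at 0 CPM untreated, 149.8 with IL-1β alone, 0.502 with IFN-γ alone and 168 with both, a ratio of 335 (162 to 835) on 7 UMIs in the IFN-γ library. Nos2, inducible nitric oxide synthase, stood at 0 CPM untreated, 140.2 with IL-1β alone, 2.44 with IFN-γ alone and 639 with both, a ratio of 262 (187 to 379). The rise of Nos2 was 4.48 times the summed single rises, and that of Hamp 1.12 times. Saa3 (acute phase), Crispld2 and Tac1 had 1, 2 and 2 UMIs in the IFN-γ library and stood at 39.7, 26.4 and 20.8 CPM with both. Icam1, an adhesion molecule for leukocytes, stood at 0.302 CPM untreated, 134 with IL-1β alone, 3.51 with IFN-γ alone and 397 with both, and Cd40, a costimulatory receptor, at 0.252 CPM untreated, 49.8 with IL-1β alone, 1.51 with IFN-γ alone and 154 with both. Steap4, a metalloreductase, stood at 0.453 CPM untreated, 350.3 with IL-1β alone, 1.79 with IFN-γ alone and 199.9 with both, so that it was lower with both cytokines than with IL-1β alone, and Ltf, lactoferrin, went from 0.215 to 23.1 CPM. Among genes that IFN-γ raised from under 1 CPM to no more than 4 CPM, Acod1, the itaconate synthase, stood at 0.0503 CPM untreated, 19.4 with IL-1β alone, 1.58 with IFN-γ alone and 99.4 with both, and Neurl3, a ubiquitin ligase, at 0.201 CPM untreated, 20.3 with IL-1β alone, 1.43 with IFN-γ alone and 123 with both. Their rises were more than the single rises added, 4.75 times for Acod1. Il4i1, an amino acid oxidase, stood at 0.956 CPM untreated, 209.8 with IL-1β alone, 2.01 with IFN-γ alone and 161 with both. Il4i1 was thus highest with IL-1β alone, and its 2.10-fold rise with IFN-γ falls under 2-fold when measured from the median gene.

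NF-κB genes and their feedback inhibitors were raised almost throughout. Of 7 with at least 10 CPM with IFN-γ, 6 were raised, against 7.05% of all genes, and none was lowered, with a median log2 ratio of 2.07. Another 8, Tnfaip3 and Birc3 among them, passed only through the combined library. Nfkbia, the inhibitor IκBα, stood at 48.4 CPM untreated, 477 with IL-1β alone, 50.2 with IFN-γ alone and 619.8 with both. Tnfaip3, the inhibitor A20, stood at 1.26 CPM untreated, 79.8 with IL-1β alone, 4.16 with IFN-γ alone and 115 with both, and Birc3, an inhibitor of apoptosis, at 4.38 CPM untreated, 197 with IL-1β alone, 8.1 with IFN-γ alone and 201 with both. In CPM, Birc3 levels were alike with IL-1β alone and with both, while those of Nfkbia and Tnfaip3 were higher with both. Cyld, a deubiquitinase that limits NF-κB, was the exception at 0.939 (0.855 to 1.03). Il1r1, the IL-1 receptor itself, was lowered, standing at 239.7 CPM untreated, 254 with IL-1β alone, 223 with IFN-γ alone and 91.7 with both, a ratio of 0.41 (0.385 to 0.437). The adaptor Myd88 was raised, from 11.5 to 42 CPM, and the other 7 of 9 proximal signaling genes with at least 10 CPM with IFN-γ lay within 1.5-fold, where 7.05% of all genes were raised and 26.2% lowered. Irak2, from 5.52 to 10.3 CPM, passed only through the combined library.

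In the nitric oxide group, Nos2 passed only through the combined library, and of the 6 other genes tested 3 that supply its substrate and cofactor were lowered, against 26.2% of all genes. Slc7a2, an arginine transporter, stood at 78.1 CPM untreated, 43.9 with IL-1β alone, 98.3 with IFN-γ alone and 25.5 with both, a ratio of 0.259 (0.231 to 0.29). Pts and Qdpr, enzymes of tetrahydrobiopterin synthesis and recycling, had ratios of 0.523 (0.481 to 0.568) and 0.556 (0.516 to 0.598). Gch1, the first enzyme of that pathway, was level with IFN-γ at 0.995 (0.957 to 1.03), and stood highest with IL-1β alone at 500.0 CPM.

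Secreted and acute phase genes stood high in both libraries with IL-1β. All 5 genes of the inflammatory list with at least 10 CPM with IFN-γ were raised, as were all 5 of the C/EBP, metallothionein and acute phase list, with median log2 ratios of 3.58 and 1.34, where 7.05% of all genes were raised. A further 4 of each list passed only through the combined library. Defb1, an antimicrobial defensin, stood at 24.6 CPM untreated, 991 with IL-1β alone, 58.4 with IFN-γ alone and 845 with both, Sod2, the mitochondrial superoxide dismutase, at 99.3 CPM untreated, 1027 with IL-1β alone, 114 with IFN-γ alone and 957 with both, and Lcn2, lipocalin 2, at 27.1 CPM untreated, 531 with IL-1β alone, 32.6 with IFN-γ alone and 389 with both. Their rises with both cytokines were 0.821, 0.911 and 0.711 of the summed single rises, respectively. Mt1, a metallothionein that binds zinc, stood at 855 CPM untreated, 5236 with IL-1β alone, 1524 with IFN-γ alone and 3860.4 with both, and its rise was 0.595 of the sum. Cebpd, a transcription factor of the acute phase response, stood at 57.8 CPM untreated, 928 with IL-1β alone, 101 with IFN-γ alone and 665 with both. In CPM, these genes thus lay above their IFN-γ level but below their level with IL-1β alone. Hormone genes held 28.7% of β-cell UMIs with IL-1β alone and 38.2% with both, which lowers the CPM of other genes with both. The smaller differences from IL-1β alone, as for Sod2 and Defb1, and the fractions of summed rises therefore depend on the scale. Of the complement genes, C3, Cfb and C1ra passed 10 CPM only in the combined library, at 24, 27.7 and 43.9 CPM, and Serping1, the C1 inhibitor, which IFN-γ had brought to 231 CPM, was left at 1.03 (0.979 to 1.08).

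Most of the β-cell identity and function genes tested were lowered when IL-1β was added to IFN-γ, and none was raised. Of 22 tested, 14 were lowered and 8 lay between, against 26.2% of all genes lowered, with a median log2 ratio of -1.16. The same 14 were lowered when measured from the median gene, against 15.2% of the 7986 genes tested. Mafa, which activates insulin transcription, stood at 622 CPM untreated, 71.3 with IL-1β alone, 468 with IFN-γ alone and 52.1 with both, a ratio of 0.111 (0.103 to 0.12). Slc2a2, which encodes the glucose transporter GLUT2, stood at 139 CPM untreated, 14.1 with IL-1β alone, 90.4 with IFN-γ alone and 10.3 with both, a ratio of 0.114 (0.0959 to 0.134). Both were nearly as low with IL-1β alone, whereas IFN-γ alone left most of the untreated level. The homeobox genes Pdx1, Nkx2-2 and Nkx6-1 had ratios of 0.309 (0.279 to 0.343), 0.216 (0.189 to 0.246) and 0.474 (0.444 to 0.505). Rfx6, a further islet transcription factor, stood at 38.3 CPM untreated, 35.6 with IL-1β alone, 48.6 with IFN-γ alone and 12.9 with both, and Pax6 at 200 CPM untreated, 243 with IL-1β alone, 253 with IFN-γ alone and 114 with both. In CPM, these last 2, with Foxa2, were near or above the untreated level in each single-cytokine library and lowest with both. The median gene was 1.35-fold above untreated with IL-1β alone and 1.25-fold with IFN-γ alone, so the comparison with untreated depends on the scale. G6pc2, the islet glucose-6-phosphatase, was higher than untreated with IL-1β alone, at 579 against 291 CPM, and lower with both, at 182. Abcc8 and Kcnj11, which encode both subunits of the KATP channel, were left, with ratios of 1 (0.959 to 1.05) and 1.13 (0.975 to 1.31). Of the hormone genes, Ins1 was at a ratio of 0.984, Ins2 at 1.25 and Iapp at 0.77, but the rule selects on insulin.

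Outside the hormone, mitochondrial and cell type marker genes, which the rule for named genes leaves out (Mafa and Slc2a2 among them), the 12 most lowered genes of at least 20 CPM passed that limit with IFN-γ and not with both. Galr1, the galanin receptor, stood at 19.1 CPM untreated, 5.43 with IL-1β alone, 25.3 with IFN-γ alone and 1.29 with both, a ratio of 0.0511 (0.0308 to 0.0801). Within that set it was followed by Rnf138rt1, 5330434G04Rik, Fam135b, Arhgap24, Ttc28, Cabp7, Ubxn10, Gm27033, Mapk15, Dach1 and Slc35g1, whose ratios ran from 0.101 to 0.163. Ttc28, the most abundant of these, stood at 144 CPM untreated, 35.1 with IL-1β alone, 135 with IFN-γ alone and 19.7 with both. Dach1, a transcription cofactor, stood at 34.5 CPM untreated, 29.8 with IL-1β alone, 43 with IFN-γ alone and 6.92 with both. In CPM, unlike the others, it lost little with IL-1β alone, at 0.863 of its untreated level. The median gene was at 1.35 in that comparison, and measured from it Dach1 was more than 1.5-fold lower.

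Cell death and stress genes were more often raised than lowered. Of 10 cell death genes with at least 10 CPM with IFN-γ, 7 were raised, against 7.05% of all genes, and none was lowered, with a median log2 ratio of 0.69, and 6 others, Fas and Casp4 among them, passed only through the combined library. Among the 7 raised were Tnfrsf1a, the TNF receptor, from 57.6 to 148 CPM, and Mlkl, the effector of necroptosis, from 14.6 to 28.9 CPM. Fas, a death receptor, went from 1.15 to 42.5 CPM and Casp4, an inflammatory caspase, from 0.287 to 20.4 CPM. Bcl2l1, also raised, which encodes the survival protein BCL-XL, went from 15.4 to 55.8 CPM. Bax, a pore-forming effector, was left at 1.01 (0.942 to 1.08), and Bbc3 and Pmaip1, sensors of the BH3-only class, did not reach 10 CPM. Of 13 genes of the unfolded protein response, 5 were raised and 1 lowered, against 7.05% and 26.2% of all genes. None was lowered when measured from the median gene, against 15.2% of the 7986 genes tested. With Atf3, which passed only through the combined library, the raised ones were Atf3, Chac1, Trib3, Ddit3, Atf4 and Asns, targets or members of the ATF4 branch, with ratios from 1.51 to 8.05, while the chaperone genes Hspa5 and Hsp90b1 had ratios of 1.12 (1.1 to 1.14) and 0.662 (0.646 to 0.679). Of 10 heat shock genes, Hspa8, Dnajb1 and Bag3 were raised, against 7.05% of all genes. Measured from the median gene, 7 were raised, against 15.3% of the 7986 genes with 10 CPM in either library. β cells with high Hspa1a and Hspa1b made up 7.56% with IFN-γ and 9.16% with both, and without them the counts of raised and lowered genes stayed within 1.5-fold.

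The effect of IL-1β could also be measured without IFN-γ, from the IL-1β and untreated libraries, which share no library with the comparison above. Over the 7666 genes with at least 10 CPM in either library of each pair, 641 genes were raised at least 1.5-fold in both comparisons, or 88.8% of the 722 raised in the presence of IFN-γ and 21.2% of the 3022 (39.4%) raised in its absence. Another 412 were lowered in both, or 22% of 1871 and 69.5% of 593 (7.74%). The median gene lay at a log2 ratio of 0.43 for IL-1β over untreated and -0.23 for both over IFN-γ. Measured from the medians, 687 genes were raised in both, or 61.5% of 1117 and 53.3% of 1289, and 598 lowered in both, or 53.7% of 1113 and 41.6% of 1437. Opposite calls depended on the centring. Measured from the medians, 32 genes were raised with IFN-γ and lowered without, and 16 the other way, whereas without centring these were 8 and 215 genes, the latter 11.5% of the 1871 lowered with IFN-γ. Across these genes the log2 ratios had a Pearson correlation of 0.764 and a Spearman correlation of 0.563, a description over genes of 4 single libraries.

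**Figure D5:**
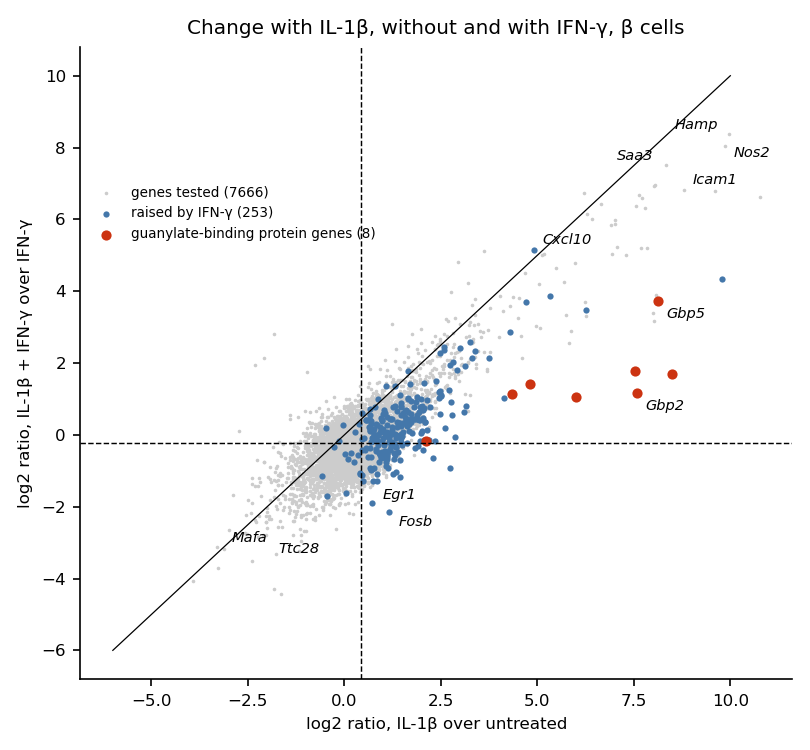
Log2 ratio of IL-1β over untreated (x axis) against that of both cytokines over IFN-γ (y axis) in β cells for 7666 genes, with genes raised by IFN-γ in blue and GBP genes in red, dashed lines at the medians and a solid line at equal ratios. GBP genes lie far right of the solid line, each having stood at under 10 CPM untreated, Cxcl10 lies on it, and Egr1 and Fosb lie low.

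For the GBP genes shown, the ratio was larger without IFN-γ than with it. Gbp2 was raised from 1.51 to 287 CPM by IL-1β alone and from 819 to 1821 CPM in the presence of IFN-γ. In CPM the second step was the larger. Of the 4 listed IRG genes lowered in the presence of IFN-γ, none was lower with IL-1β alone than untreated. Irgm1 went from 12 to 18.5 CPM, Irgm2 from 1.76 to 4.18 and Iigp1 from 0.101 to 1.25, and F830016B08Rik had 0 UMIs in both.

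Other endocrine cells of the same libraries, chosen by their leading hormone, gave a comparison for both families. In 305 α cells with IFN-γ and 182 with both, the GBP sum had a ratio of 2.02 (1.94 to 2.09) and the IRG sum of 0.416 (0.398 to 0.435). In 150 and 70 δ cells these were 2.58 (2.45 to 2.72) and 0.880 (0.816 to 0.948). The GBP sum was thus higher with both cytokines in each of the 3 cell types. Without Iigp1, the IRG sum had a ratio of 0.546 (0.516 to 0.577) in α cells, 0.693 (0.678 to 0.707) in β cells and 0.993 (0.909 to 1.08) in δ cells, so the lower sum in δ cells rested on Iigp1. These are single libraries, and the differences between cell types were not tested.

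Promoter letters of the genes raised by IFN-γ are given as a description. Of the 89 boosted genes, 67 were matched in the RefSeq table by symbol, and 40.3% of these held a κB match, 25.4% an IRF match, 13.4% a GAS match and 19.4% a κB match together with an IRF or GAS match. Of the 172 left, 129 were matched, with 25.6%, 22.5%, 15.5% and 6.20% in the same order. Of the 60 dampened, 47 were matched, with 34.0%, 17.0%, 10.6% and 4.26%. Among all 6333 tested genes in the table, 30.4% held κB, 3.92% IRF and 7.97% GAS letters, and 3.54% held κB with IRF or GAS. IRF letters were thus more frequent in all 3 classes than among tested genes. κB and IRF letters stood together in Cxcl10 and Gbp5, printed above, and the windows of Igtp and Irgm1 held IRF but no κB letters, but these genes were chosen after their values were seen. Another window ran the other way. Fosb, the most dampened of the named genes with at least 20 CPM, held 2 κB matches, at 45 and 16 bases before the start. Icam1, which held a GAS match and no κB letters, passed only through the combined library and is not among the 89. The κB letters are a fixed pattern, so a variant site that departs from them was not counted, in Icam1 or elsewhere. Among the 5 IRG genes with a window, none held κB letters, and 4 held IRF letters, as did all 4 GBP genes with a window, of which 2 held κB letters.

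Transcripts of other cell types were present at low levels. The summed level of 7 acinar enzyme genes was 67.8 CPM untreated, 13.4 with IL-1β alone, 73.6 with IFN-γ alone and 310.4 with both, led by Ctrb1, from 43 to 165 CPM. The 2 with at least 10 CPM with IFN-γ were raised, against 7.05% of all genes. Acinar enzymes are made by exocrine cells, and their part in the values above was not tested. Ductal markers went from 9.54 to 28.6 CPM, nearly all of it Spp1, endothelial markers from 6.53 to 9.25 CPM and lymphocyte markers from 4.45 to 3.1 CPM. Mesenchymal markers were at 4.66 and 1.16 CPM. α-cell markers went from 196 to 164 CPM, in which Gcg, limited by the rule, went from 171 to 84.5 CPM, and δ-cell markers went from 61.8 to 80.3 CPM. The PP-cell genes Ppy and Pyy together went from 581 to 412 CPM.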

How the data were processed

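Islet cells of 4 samples, 1 library each, were measured with a 10x Genomics 3′ kit, version 3 in the study's methods and version 2 in the labels. The authors counted UMIs with CellRanger. The deposited values are raw UMI counts for 31053 genes, not normalized, with a software version of 3.0.0 in the matrix headers and the build mm10 in the submitters' processing notes. No source used here names the annotation. No doublet caller was applied beyond the upper gene limit.

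Counts were summed over the β cells of each library in Python 3.11.15 (pandas 2.3.3, numpy 2.4.6 and scipy 1.17.1) and plotted with matplotlib 3.10.9. CPM were taken over all β-cell UMIs. In ratios, counts under 3 UMIs were set to 3. Genes needed 10 CPM in either library, a call needed 1.5-fold, and an IFN-γ effect 2-fold. List members were counted at 10 CPM in the IFN-γ library. With 1 library per condition no test was possible, and p-values are not given. The samples were taken from 1 islet pool, so the values measure these libraries only. The calculation was tested on simulated data with known folds. Genes were named by rule, outside hormone, mitochondrial and cell type marker genes: the 12 most raised and 12 most lowered with at least 20 CPM, the 10 most boosted, 10 most dampened and 6 nearest 1 among genes raised by IFN-γ, up to 8 lowered by IFN-γ, and members of gene lists at the extremes or most abundant. Other names, among them Cxcl10, Gbp5, Igtp and Irgm1 for the printed promoters, were chosen after their values were seen. The promoter rule also picked Icam1, Fosb and Atm, which are not printed. Some list members and named genes are not reported here. The cells, members and lists were chosen with earlier results of these data known. Positions of 30934 identifiers came from GENCODE M21 (GRCm38). Alternatives changed the scale, cell limits, level minimum, pseudocount and folds, and 1, a minimum of 10 CPM in the IFN-γ library, was added after the values were seen.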

Additional observations from a re-analysis of the deposited data

Results flagged for a closer look

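Genes that IL-1β moved in opposite directions with and without IFN-γ, by at least 1.5-fold each way and with more than 3 UMIs in both the untreated and the IL-1β library, were looked for among the named genes and the list members tested, leaving out hormone genes. Iigp1, with 2 untreated UMIs, was left out by that limit. On the log2 scale, the ratio of IL-1β over untreated and that of both cytokines over IFN-γ were 0.731 and -1.27 for Cenpj, 1.33 and -1.03 for Ddx60, 0.712 and -1.90 for Egr1, 1.14 and -2.14 for Fosb, 0.62 and -0.61 for Irgm1, 1.25 and -0.77 for Irgm2, 2.29 and -0.65 for Tnfsf10, 0.995 and -1.05 for G6pc2, and -3.05 and 1.24 for Lgals3. For the acinar enzyme genes these were -2.98 and 1.64 for Cela1, -3.59 and 2.43 for Cela2a, -2.65 and 3.21 for Cpa1, -2.32 and 1.94 for Ctrb1, and -2.07 and 2.13 for Prss2, and for the macrophage marker C1qa -0.963 and 1.76. The medians of all genes were 0.43 and -0.23. Measured from these medians, Ddx60 and Fosb alone of the 8 genes higher without and lower with IFN-γ still passed 1.5-fold both ways, so the opposite calls of the other 6 depend on the scale, while all 7 in the other direction still passed. Egr1 and Fosb are immediate early genes, Irgm1 and Irgm2 belong to the IRG family, and Lgals3 stood at no more than 2.20 CPM in the libraries treated with cytokines. Between cell types, the ratio of both cytokines over IFN-γ was 1.83 on the log2 scale for Apoe in α cells, against -0.67 in β cells, on 8 and 19 UMIs in α cells. It was -1.1 against 1.94 for Ctrb1 and -0.899 against 2.13 for Prss2, on 218 and 68 and on 64 and 23 UMIs in α cells, and -0.908 against 0.913 for Irf8. With 1 library per condition, none of these differences was tested.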

How the results depend on the processing

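No paired analysis was possible because each condition had 1 library and no replicate numbers, and no replicate could be left out. Under the alternatives the GBP sum kept a ratio of 2.19 to 2.63 and the IRG sum one of 0.622 to 0.753. Of 2637 values for 293 named or listed genes, 2129 stayed within counting error of the main value, 506 moved beyond it and 2 changed sign: Apoe, at 1.499 with no upper gene limit, and Cpb1, an acinar gene, at -0.022 in cells of 5000 to 15000 UMIs, both on the log2 scale. The counts of genes depended more on the scale and thresholds. Scaling by the median of gene ratios gave 1267 raised and 1110 lowered genes. Of the genes raised by IFN-γ, 130 were then boosted, 80 left and 20 dampened, against 158, 177 and 60 in the main analysis. Among genes lowered by IFN-γ, 6 were lowered further. Leaving hormone genes out of the totals gave 134 boosted, 104 left, 34 dampened and 13 lowered further. Fewer genes thus counted as raised by IFN-γ on both scales. All 20 genes dampened on the median scale were among the main 60, as were 24 of the 34 with hormone genes left out. Of the 89 boosted genes with 10 CPM with IFN-γ, 56 were also boosted on the median scale. With hormone genes left out, 57 were. A minimum of 1 CPM gave 1296 raised, 3972 lowered, 262 boosted, 291 left, 269 dampened and 11 lowered further, and a minimum of 20 CPM gave 1255 lowered, 35 dampened and 1 lowered further. A pseudocount of 5 CPM gave 64 boosted, 27 dampened and 1 lowered further. Calling at 2-fold gave 444 raised, 799 lowered and 28 dampened, and an IFN-γ effect of 1.5-fold gave 306 boosted, 939 left, 321 dampened and 20 lowered further. Requiring 10 CPM in the IFN-γ library, added after the values were seen, gave 89 boosted. The 2 genes lowered further by IL-1β became 1 with no upper gene limit or an insulin limit of 15%, 0 at 20% mitochondrial UMIs and 4 in cells of 5000 to 15000 UMIs. The upper gene limit removed 131 cells with IFN-γ and 105 with both that otherwise met the β-cell rule, and 623 untreated ones. Single libraries, unequal depth and unequal hormone shares limit every value.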
